A study of Mus musculus with 10 samples.

Results

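The genes described here are 32 tight junction genes: 22 claudins, the MARVEL proteins Ocln, Marveld2 and Marveld3, the junctional adhesion molecules F11r, Jam2 and Jam3, and the scaffold and polarity proteins Tjp1, Tjp3, Cgn and Pard3. They were chosen by family and function, out of 21938 protein-coding genes of GENCODE M21 on assembled chromosomes (mm10, the GRCm38 assembly). A gene was said to hold a peak when a deposited peak of the aryl hydrocarbon receptor (AHR) overlapped its body or the 10 kb on either side by at least 1 bp. By this rule 30 of the 32 held a wild type peak, and Cldn5 and Cldn22 did not.

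Chromatin immunoprecipitation with sequencing (ChIP-seq) of AHR was performed on mouse colon organoids, which are epithelial cultures grown from crypts of the whole colon. Both genotypes, wild type and AHR KO, were kept in WENR medium (with added Wnt3a) and were exposed to 5 nM FICZ, a ligand of AHR, for 1 hour, and there was no group without ligand. The 4 wild type cultures gave 4 AHR ChIP and 4 input libraries, and the AHR KO gave 1 AHR ChIP and 1 input library. The study's methods describe the KO organoids as made from Vil-Cre Ahr fl/fl mice, in which the villin promoter drives Cre in the intestinal epithelium. The methods describe 4 biological replicates for the KO as for wild type, but the label of the KO library does not say how many of them it holds. Ages were not given in the sources used here. The peak lists hold no expression, so neither the cell type nor the loss of AHR was checked against marker genes.

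Tight junctions seal the space between neighbouring epithelial cells near their apical side. Claudins are membrane proteins that form the strands, and some of them seal while others line pores for ions or water. Occludin and tricellulin (Marveld2) are MARVEL proteins of the strands, junctional adhesion molecules join cells through their outer domains, and the ZO proteins (Tjp1, Tjp3), cingulin (Cgn) and PAR-3 (Pard3) bind the inner side to actin and to the machinery of polarity. AHR binds a ligand in the cytosol, enters the nucleus, pairs with ARNT, and recognises DNA with the core GCGTG, most strongly within the longer word TNGCGTG, where N is any base.

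The wild type list held 123652 peaks over all 4 cultures together and the AHR KO list held 1931. The score of each peak is the fold enrichment the authors' peak caller gave, read as the ChIP pileup plus 1 over the expected background plus 1. In the wild type list 51.6% of the scores lay on whole multiples of 0.332 (within 0.001 of a whole number after division), which puts the genome-wide background at 2.01 fragments and the typical (median) pileup of these peaks at 16. In the KO list 17.3% lay on multiples of 0.777 by the same tolerance, which puts the background at 0.287 fragments, and the lowest pileup among them was 5 fragments. The background of the KO list was thus the lower, and no score is compared between the lists. Since neither list gives a value per culture, no difference below has a replicate check and no test was run. Intervals are 95% Wilson intervals and cover counting error over genes or peaks only, which are not replicates of a condition.

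A peak that held TNGCGTG was found at 3 of the 32 genes, F11r, Tjp1 and Pard3 (9.38%, against 6.73% of all protein-coding genes and 6.22% at similar length). These peaks are shown first because that word is the stronger form of the site of AHR and ARNT. All 4 of these peaks were intronic. The lines below give the 200 bp around each peak's midpoint, on the plus strand of GRCm38, in lower case with TNGCGTG or its reverse complement in capitals.
F11r, chr1:171442857-171443056: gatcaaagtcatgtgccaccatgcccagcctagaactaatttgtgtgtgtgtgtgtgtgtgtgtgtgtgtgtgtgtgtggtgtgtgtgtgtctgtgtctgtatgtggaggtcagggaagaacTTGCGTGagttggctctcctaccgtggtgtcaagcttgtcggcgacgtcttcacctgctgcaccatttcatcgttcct
Tjp1, chr7:65463438-65463637: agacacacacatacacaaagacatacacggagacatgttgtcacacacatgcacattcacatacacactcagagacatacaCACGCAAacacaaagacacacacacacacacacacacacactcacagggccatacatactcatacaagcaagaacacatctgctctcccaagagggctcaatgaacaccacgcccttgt
Pard3, first peak, chr8:127450482-127450681: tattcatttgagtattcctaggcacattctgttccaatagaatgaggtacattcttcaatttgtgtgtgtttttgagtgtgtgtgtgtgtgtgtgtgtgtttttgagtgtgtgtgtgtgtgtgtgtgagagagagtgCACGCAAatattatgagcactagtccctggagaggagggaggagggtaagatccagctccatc
Pard3, second peak, chr8:127528347-127528546: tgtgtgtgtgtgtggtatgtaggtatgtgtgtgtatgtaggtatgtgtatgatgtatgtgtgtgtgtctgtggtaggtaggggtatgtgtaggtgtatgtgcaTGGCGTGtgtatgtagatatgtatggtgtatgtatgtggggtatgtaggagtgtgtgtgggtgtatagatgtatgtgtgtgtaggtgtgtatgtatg
The scores of these peaks were 5.92 at F11r, 4.23 at Tjp1, and 4.98 and 8.64 at Pard3. None was the best peak of its gene. Each window also held 6 or 7 non-overlapping copies of CACACA or TGTGTG, and from 56.0% to 79.5% of its bases were soft-masked, which means marked as repeat in the assembly.

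The best peaks of Tjp1, Cldn3 and Cldn13 are shown next, the first and second for their scores and the third because it recurred in the AHR KO. Here the capitals mark the non-overlapping copies of CACACA or TGTGTG.
Tjp1, chr7:65455479-65455678: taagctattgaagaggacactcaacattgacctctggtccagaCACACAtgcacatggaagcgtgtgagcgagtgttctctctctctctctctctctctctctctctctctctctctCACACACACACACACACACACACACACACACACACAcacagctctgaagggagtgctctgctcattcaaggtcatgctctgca
Cldn3, chr5:134983576-134983775: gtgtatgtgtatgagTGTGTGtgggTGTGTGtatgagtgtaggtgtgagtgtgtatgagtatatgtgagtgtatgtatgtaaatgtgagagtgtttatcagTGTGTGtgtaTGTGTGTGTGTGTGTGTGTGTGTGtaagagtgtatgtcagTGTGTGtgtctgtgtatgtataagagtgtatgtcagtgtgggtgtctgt
Cldn13, chr5:134911003-134911202: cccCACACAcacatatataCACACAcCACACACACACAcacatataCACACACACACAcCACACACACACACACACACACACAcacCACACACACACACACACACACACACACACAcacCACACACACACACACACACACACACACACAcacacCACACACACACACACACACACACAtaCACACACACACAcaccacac
The Tjp1 window held 7 copies, that of Cldn3 held 8 and that of Cldn13 held 26. For scale, the best peak of Cyp1a1, the cytochrome P450 gene that is the standard AHR target, follows with GCGTG or its reverse complement in capitals.
Cyp1a1, chr9:57696569-57696768: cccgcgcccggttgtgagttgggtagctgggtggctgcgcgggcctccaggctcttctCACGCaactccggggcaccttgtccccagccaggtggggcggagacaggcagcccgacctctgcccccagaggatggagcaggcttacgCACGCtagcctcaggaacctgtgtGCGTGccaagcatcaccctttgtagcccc
The Cyp1a1 window was 0% soft-masked and held 3 copies of GCGTG, of which 2 were within TNGCGTG. The Tjp1 window was 62.5% soft-masked and held 1 copy of GCGTG and no TNGCGTG, although its peak scored 17.6 against 18.0 for the Cyp1a1 peak. The Cldn3 and Cldn13 windows held neither word.

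The share of tight junction genes with a wild type peak was 93.8% (30 of 32, 95% interval 79.9 to 98.3%), against 78.3% of all protein-coding genes. The search window grows with the gene, so each of the 32 was also set beside the 200 protein-coding genes nearest to it in length. Of those, 74.3% held a peak, 19.4 percentage points fewer, or 23.8 genes of 32 at the same share. The short genes, under 5 kb and all of them claudins, held a peak in 10 of 12 cases (83.3%), against 59.0% at similar length. The longer genes held one in 20 of 20 cases, against 83.5%. The gap was 3.20 points with peaks in the gene body alone (14 of 32 genes, 43.8%, against 40.5%) and 9.16 points with 2 kb on either side (19 of 32, 59.4%, against 50.2%). Over all protein-coding genes, whose median length was 17.4 kb against 14.3 kb for the 32, the shares were 49.7% in the gene body, above that of the 32 genes, and 57.4% with 2 kb. With 50 kb on either side all 32 genes and 96.7% of those of similar length held a peak, which leaves no room for a larger gap than 3.31 points.

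**Figure D1:**
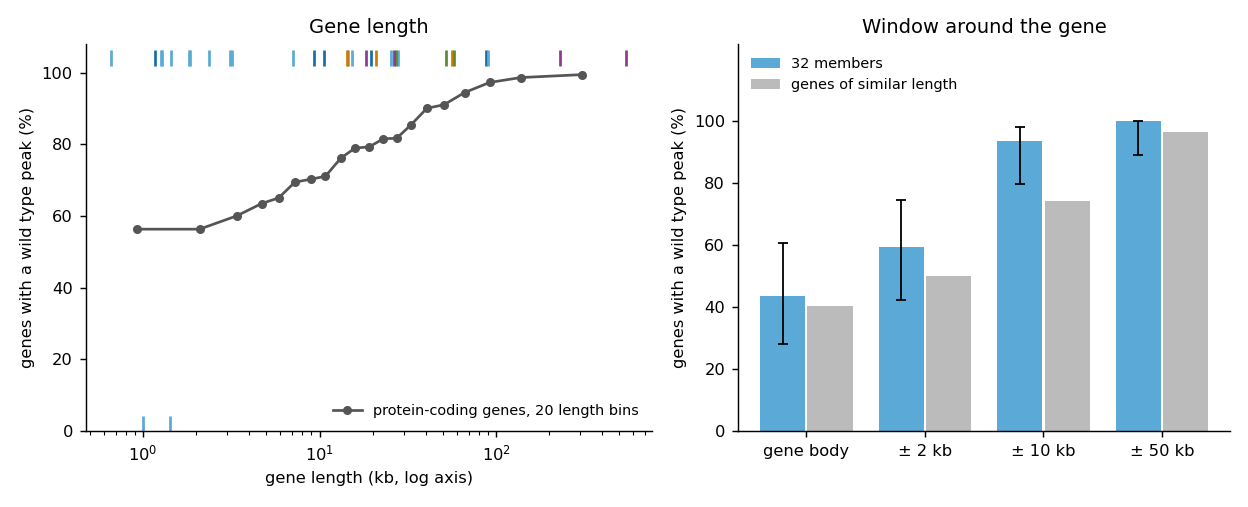
Left, the share of protein-coding genes with a wild type AHR peak (y axis, percent) against gene length (x axis, kb, log axis) in 20 length bins, with ticks at the top for the tight junction genes that held a peak and at the bottom for Cldn5 and Cldn22, which did not. Right, the share with a peak (y axis, percent; bars of the 32 genes with 95% Wilson intervals, grey bars for genes of similar length) for 4 search windows, with 93.8% against 74.3% at 10 kb and 43.8% against 40.5% in the gene body.

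The median of the best scores over the 30 genes with a peak was 6.33, against 6.20 for genes of similar length and 6.31 for all protein-coding genes with a peak. Against the median of its own 200 neighbours in length, the best score was above in 18 genes, below in 10 and equal in Ocln and Jam2. A best score of at least 10 was reached by Tjp1 (17.6), Cldn3 (15.3) and Cldn14 (10.5), which is 9.38% of the 32 genes, against 3.89% of all protein-coding genes and 3.86% at similar length. A peak in the top 10% of the wild type list was held by 12 of the 32 (37.5%), against 23% of all protein-coding genes and 21.9% at similar length. The lowest best scores were those of Tjp3 (3.02) and of Cldn6 and Cldn9 (3.61 each, the same peak).

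**Figure D2:**
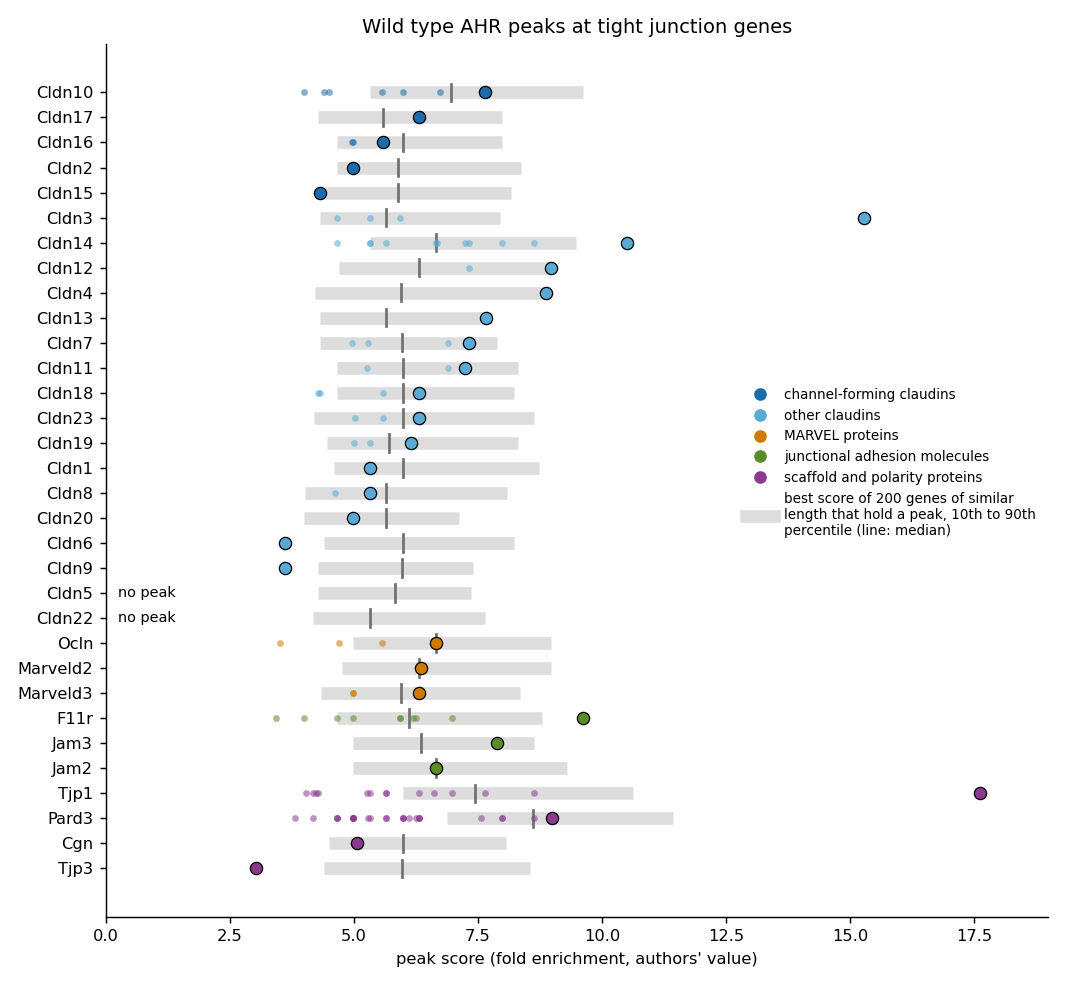
Scores of all wild type AHR peaks (x axis, the authors' fold enrichment) at each of the 32 tight junction genes (y axis, grouped and coloured by role), with the best peak of each gene as a large outlined point and grey bars for the 10th to 90th percentile of the best scores of similar-length genes that held a peak. Tjp1, Cldn3, Cldn14, F11r and, by a small margin, Cldn12 lie to the right of their grey bars, while Tjp3, Cldn6, Cldn9 and, by a small margin, Cldn15 lie to the left of theirs.

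All 5 pore-forming claudins held a peak, against 78.3% of all protein-coding genes. The share of their neighbours in length with a peak ran from 65.0% for Cldn17 to 96.0% for Cldn10. Their median best score was 5.59, against 6.31 for the other claudins. Cldn10, which forms ion pores in several epithelia, had 8 peaks with scores from 3.99 to 7.64, the highest shared by a peak 2814 bp upstream and an intronic one. Cldn17, a pore for anions, reached 6.31 at 2738 bp past its end. Cldn16, the claudin of magnesium handling in the kidney, reached 5.59. Cldn2, the cation and water pore of leaky epithelia, had 1 peak, with a score of 4.98, 4611 bp past its end. Cldn15, the sodium pore of the intestine, had 1 peak with a score of 4.32, and it lay in the neighbouring gene Fis1, at -8380 bp from the Cldn15 start. Cldn10 was the 1 gene of these 5 (20.0%) with a peak in the top 10% of the list, near the 23% of all protein-coding genes.

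The other 17 claudins ranged more widely. In this group 15 held a peak (88.2%), against 78.3% of all protein-coding genes. Their best scores ran from 3.61 to 15.3, with a median of 6.31. Cldn3, a sealing claudin of the intestine, had 4 peaks with scores of 4.65, 15.3, 5.92 and 5.32 from upstream to downstream. The peak that scored 15.3 lay 2539 bp upstream (chr5:134983446-134983905), ranked 126 of the list, and exceeded the best score of 200 of the 200 genes nearest in length, with genes that held no peak counted as lower. Cldn4, which also seals intestinal junctions and lies in the same cluster on chromosome 5, had 1 peak, with a score of 8.88, 5266 bp upstream. Cldn13, the rodent gene of that cluster, had 1 peak, with a score of 7.65, 3147 bp past its end.

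Cldn14, known for the seal of the inner ear, had 11 peaks with scores from 4.65 to 10.5. The highest was intronic and 2082 bp wide (chr16:93995463-93997544). Cldn12 reached 8.97 at 1665 bp past its end. Cldn7, which is widespread in intestinal epithelium, had 4 peaks, all upstream of the gene or at its promoter, with scores of 5.28, 4.96, 7.31 and 6.90 in the direction of the start. Cldn11, the claudin of myelin, reached 7.23, and Cldn18, the claudin of stomach and lung, reached 6.31. Cldn1, whose product is a main barrier protein of skin, reached 5.32 both in an intron and 2824 bp upstream. The remaining claudins with a peak lay between 3.61 and 6.31.

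The genes without a peak were short claudins. Cldn5, the claudin of blood vessel endothelium, is 1416 bp long, and 59.5% of its neighbours in length held a peak. Cldn22 is 995 bp long, and 55.5% of its neighbours did.

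The 10 genes other than claudins all held a peak, against 78.3% of all protein-coding genes. They were longer, with a median of 39.4 kb against 17.4 kb. The share of neighbours in length with a peak ran from 62.0% for Cgn to 100% for Pard3. The median best score of the 10 was 6.65. Tjp1, which encodes ZO-1, had 14 peaks, 13 of them intronic. Their scores ran from 4.03 to 8.64 apart from the one of 17.6 (chr7:65455380-65455776), which ranked 81 of the list and stood 72118 bp from the nearest annotated start. Tjp3, which encodes ZO-3, had 1 peak, with a score of 3.02, in the neighbouring gene Apba3, and its rank was 122080. The paralogs thus stood at opposite ends of the 30 genes. Cgn had 1 peak, with a score of 5.05, 8470 bp upstream. Pard3, the longest of the 32 genes at 548.4 kb, had 27 peaks and a best score of 8.99, against a median of 8.61 at similar length.

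F11r, which encodes JAM-A, the main junctional adhesion molecule of epithelium, had 10 peaks and a best score of 9.63 in its intron, 2779 bp past a start. That score exceeded those of 190 of its 200 neighbours in length, counted in the same way. Jam3 had 1 peak, with a score of 7.88, and Jam2 had 1, with a score of 6.65. Among the MARVEL proteins the best scores lay close together, at 6.65 for Ocln, 6.34 for Marveld2 and 6.31 for Marveld3. Those of Ocln and Marveld2 were intronic, and that of Marveld3 was shared by an intronic and an upstream peak.

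The 32 genes held 122 distinct wild type peaks, of which Cldn6 and Cldn9 shared 1. Counted by gene, 72 of 123 (58.5%) were intronic, 28 (22.8%) upstream, 20 (16.3%) downstream and 3 (2.44%) at a promoter, from 1 kb upstream to 100 bp downstream of an annotated start. Pard3, Tjp1, Cldn14 and F11r held 62 of the 122 distinct peaks (50.8%), and their search windows made up 48.8% of the sequence searched. There were 11 genes with 1 peak, 14 with 2 to 4, and 5 with 8 or more. In 16 of the 32 genes (50%) the only peaks lay in the flanks, against 28.6% of all protein-coding genes and 33.8% at similar length. Of the 51 peaks counted outside the body of the gene, 46 were nearer to its start than to that of any other protein-coding gene, and 3 lay inside another protein-coding gene. Over the merged search windows there were 61.0 peaks per Mb, against 45.7 over those of all protein-coding genes.

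**Figure D3:**
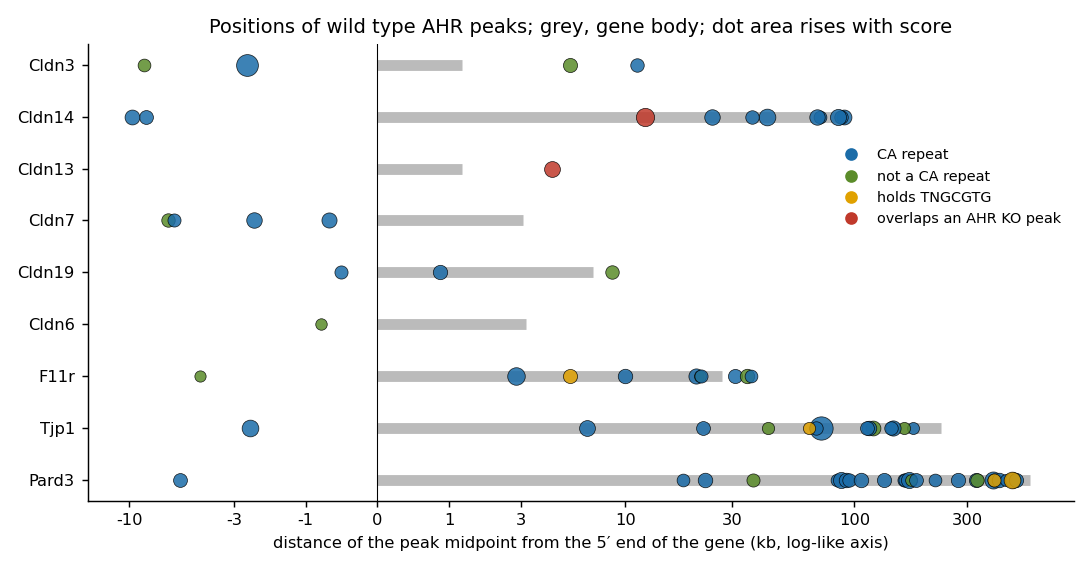
Wild type AHR peaks at the 9 tight junction genes that had a peak with a score of at least 10, at a promoter, with TNGCGTG or shared with the AHR KO, by distance of the peak midpoint from the 5′ end of the gene (x axis, kb, log-like axis), with the gene body in grey and the area of a dot rising with its score. The best peaks of Cldn3 and Cldn7 lie upstream, those of Tjp1, F11r, Pard3 and Cldn14 inside the gene, and the 2 red dots at Cldn13 and Cldn14 are the peaks that overlapped a KO peak.

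A promoter peak was held by Cldn6, Cldn7 and Cldn19 (9.38% of the 32 genes), against 10.7% of all protein-coding genes and 10.0% at similar length. Their windows are shown because these are the peaks closest to a start, with GCGTG or its reverse complement in capitals.
Cldn6, chr17:23678432-23678631: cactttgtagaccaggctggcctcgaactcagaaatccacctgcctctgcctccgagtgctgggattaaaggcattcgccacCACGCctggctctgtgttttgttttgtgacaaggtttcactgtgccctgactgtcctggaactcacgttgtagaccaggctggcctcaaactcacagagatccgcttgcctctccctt
Cldn7, chr11:69964081-69964280: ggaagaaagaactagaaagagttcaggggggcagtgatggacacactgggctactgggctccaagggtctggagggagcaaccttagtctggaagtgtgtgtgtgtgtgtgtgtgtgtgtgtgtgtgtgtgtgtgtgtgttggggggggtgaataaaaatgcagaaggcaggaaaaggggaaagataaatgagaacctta
Cldn19, chr4:119254890-119255089: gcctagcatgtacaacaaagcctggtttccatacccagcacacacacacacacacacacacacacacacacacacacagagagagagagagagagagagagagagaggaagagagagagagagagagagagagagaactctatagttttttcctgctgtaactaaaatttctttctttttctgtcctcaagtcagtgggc
The Cldn6 peak, 718 bp upstream, scored 3.61 and held 1 copy of GCGTG in a window that was 100% soft-masked. The Cldn7 peak, 599 bp upstream, scored 6.90, and the Cldn19 peak, 425 bp upstream, scored 5.00. Neither of these windows held GCGTG, and they held 7 and 6 copies of CACACA or TGTGTG. Cldn6 encodes an embryonic claudin, and Cldn19 encodes the partner of Cldn16 in the kidney.

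Promoter sequence was also read directly. RefSeq promoter sequences (GRCm38, 250 bp before to 50 bp after the start) were at hand for 25 of the 32 genes, with 37 promoters. TNGCGTG on either strand was in 3 of them (8.11%), at Ocln and Tjp1, against 5.07% of all 32851 RefSeq promoters. Neither Ocln nor Tjp1 had a promoter peak. GCGTG on either strand, which includes every TNGCGTG, was in 19 of the 37 (51.4%), against 32.4%.

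By peak, 4 of 122 windows held TNGCGTG (3.28%, interval 1.28 to 8.13%), against 2.55% of the peaks at all protein-coding genes. None of the 57 claudin peaks held it, a count of 0 that allows a share of up to 5.26% when the limit is set at 3 counts and 6.31% by the Wilson interval, while 4 of the 65 at the other genes did (6.15%). A peak with GCGTG was held by 13 of the 32 genes (40.6%), against 38.1% of all protein-coding genes. GCGTG was in 10 of 57 claudin peaks (17.5%) and 21 of 65 others (32.3%), against 20.3% at all protein-coding genes. Read from the genome, the search windows of the 32 genes contained TNGCGTG 191 times, and 4 of these copies (2.09%) lay in a peak, against 2.08% of the 99428 copies near all protein-coding genes. For GCGTG the shares were 4.33% of 1269 and 4.35% of 638785.

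CA repeats, here windows of 200 bp with 3 or more copies of CACACA or TGTGTG that do not overlap, which may adjoin in 1 run, made up 94 of the 122 peaks (77.0%, interval 68.8 to 83.6%), against 61.9% of the peaks at all protein-coding genes. The share was 73.7% in claudins and 80.0% in the other genes. Soft-masked bases made up at least 50% of the window in 95 of 122 peaks (77.9%, interval 69.7 to 84.3%), against 83.9%. No peak was under 25% soft-masked, which allows a share of up to 2.46% at 3 counts and 3.05% by the Wilson interval, against 0.586% at all protein-coding genes. Of the 29 distinct best peaks, 23 were CA repeats (79.3%), against 70.6% of the best peaks of all protein-coding genes and 69.7% at similar length. GCGTG was in 5 of the 29 (17.2%), against 24.3% and 25.1%. Without CA repeats 19 of the 32 genes still held a peak (59.4%, against 48.9% at similar length), their median best score was 5.02 against 5.26, and the highest was 6.61, at Tjp1. The part that repeats played in the scores was not tested.

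**Figure D4:**
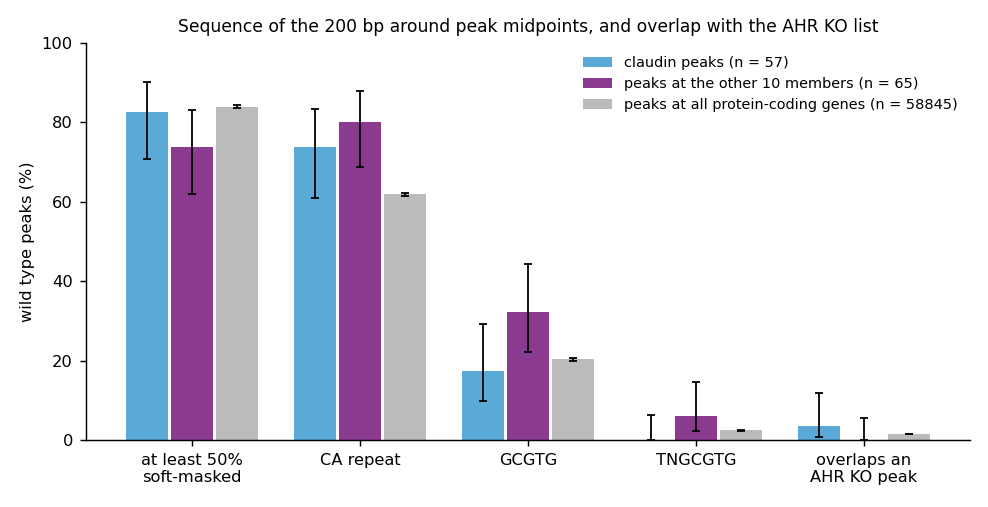
Share of wild type AHR peaks (y axis, percent, bars with 95% Wilson intervals) that were at least 50% soft-masked, were CA repeats, held GCGTG or TNGCGTG in the 200 bp around the midpoint, or overlapped an AHR KO peak, for 57 claudin peaks, 65 peaks at the other 10 tight junction genes and 58845 peaks at all protein-coding genes. CA repeats reached 73.7% and 80.0% against 61.9%, and TNGCGTG reached 0% and 6.15% against 2.55%.

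The comparison with the AHR KO asked which of these peaks recurred without AHR. Cldn13 and Cldn14 held a KO peak, 6.25% of the 32 genes against 4.47% of all protein-coding genes and 4.14% at similar length. Downstream of Cldn13 the KO peak (chr5:134911057-134911340) was 284 bp wide, had a score of 9.37 within the KO list, and lay inside the wild type peak of 570 bp. In the intron of Cldn14 the KO peak (chr16:93995754-93996318) was 565 bp wide, had a score of 5.88 within the KO list, and lay inside the wild type peak of 2082 bp. By peak, 2 of 122 overlapped the KO list (1.64%), against 1.46% of all wild type peaks. Both wild type peaks were CA repeats, and neither held TNGCGTG.

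The other 28 genes with a wild type peak had none in the KO, which is 93.3% of the 30, against 94.3% of all protein-coding genes with a wild type peak. Tjp1 and Cldn3 were among them. The KO list had the lower background, 0.287 against 2.01 fragments, and the part of depth in the missing peaks was not tested. The KO was 1 library, and its difference from wild type cannot be told apart from a difference between libraries.

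Of 35 further tight junction genes named by function, 33 were in the annotation and 26 of them (78.8%) held a wild type peak, against 85.3% of the protein-coding genes nearest to them in length. Their median best score was 6.98, against 6.65 at similar length. The highest scores were at Mpp5, a polarity scaffold (28.8), Igsf5 (12.6) and Magi2, a scaffold of 1478 kb (12.6). The windows of these best peaks were 93.0%, 100% and 100% soft-masked, with 6, 12 and 16 copies of CACACA or TGTGTG. Cldn24, Cldn34a, Cldn34b1, Cldn34c1, Lsr, Crb3 and Pard6a held none. A KO peak was held by 6 of the 33 genes (18.2%, against 4.47% of all protein-coding genes), Igsf5 and Magi2 among them. That comparison is not matched for length, and the median length was 57.2 kb in this list against 17.4 kb. The share with a wild type peak was above that at similar length among the 32 genes and below it in this list.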

How the data were processed

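AHR ChIP and input libraries of wild type and AHR KO colon organoids were sequenced as single-end reads by the authors, aligned to mm10 with BWA 0.7.15, at most 2 mismatches per read, and marked for duplicates with Picard 2.1.1. Peaks were called with MACS2 2.1.1 in its standard settings, ChIP against input (versions from the submitters' processing notes). The values deposited by the authors and used here are 1 peak list for all wild type cultures and 1 for the AHR KO, with a score per peak that is a ratio, the fold enrichment over background; this unit was inferred from the values. The treatment of reads with several possible origins was not given in the sources used here. Input libraries and single cultures were not analysed here.

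Starts were taken as counted from 0, and 1 was added. The 286 wild type and 58 KO peaks off the assembled chromosomes were left out. Genes came from GENCODE M21. Neighbours in length were the 200 protein-coding genes nearest in log length, the 32 genes excluded. Words were counted on both strands, and soft-masking was read from the GRCm38 sequence. The members and lists were chosen with earlier results of these data known. All 32 genes are accounted for. Described by position are those with a score of at least 10, a promoter peak, a TNGCGTG peak, a KO peak, 1 of the lowest 3 scores or no peak. Other positions were added after the values were seen. No test was run, since the lists carry no replicates. Alternatives changed the window, the neighbours, the score limit, the overlap and the limits on words and repeats. Scripts (Python 3.11.15, pandas 2.3.3, pysam 0.24.0) were tested on simulated data.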

Additional observations from a re-analysis of the deposited data

How the results depend on the processing

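Of 34 alternatives to 10 results, 21 stayed within the limits set for a change and 13 did not. Staying within the limits does not mean an unchanged value. With 2 kb on either side, the difference from genes of similar length was 9.16 percentage points, against 19.4 with 10 kb. The median best score exceeded that of genes of similar length by 0.599 with 2 kb, against 0.130 with 10 kb. Both were counted among the 21. Genes with a wild type peak numbered 14 with the gene body only, 19 with 2 kb on either side and 12 with the top 10% of scores. The difference from genes of similar length was 3.20 percentage points with the gene body only and 3.31 with 50 kb on either side. Without CA repeats the median best score was 5.02. Genes with a KO peak numbered 1 with the gene body only (against 2.96% of all protein-coding genes) and 1 with 2 kb on either side (against 3.27%), and overlaps with the KO list numbered 0 at a reciprocal overlap of 50%. Genes with a promoter peak numbered 8 with 2 kb on either side of the start. No share of other genes is given at this setting, and the 10.7% of all protein-coding genes is for the narrower promoter. The core GCGTG gave a share of 25.4% in place of that of TNGCGTG. Soft-masked shares were 55.7% at a limit of 75% and 100% at a limit of 25%. Narrower windows, stricter limits and shorter words change these counts by construction. No paired analysis was possible because single cultures have no values in either list, and for the same reason leaving out each culture was not run. The effect of depth on the KO list was not tested.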

Other observations

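Genes of the neighbouring junctions, the adherens junctions and desmosomes, held a wild type peak in 17 of 18 cases (94.4%), against 89.8% of the protein-coding genes nearest to them in length. Their median best score was 6.95, against 6.31 at similar length. The highest scores were at the desmosome genes Dsg2 (16.3, in a window that was 72.5% soft-masked with 7 copies of CACACA or TGTGTG), Dsp (9.30) and Ppl (8.91). Cdh1, which encodes E-cadherin, had 8 peaks with a best score of 8.31. Ctnnb1, which encodes beta-catenin, held none. Promoter peaks were at Ctnnd1 and Dsc2 (11.1%, against 10.7% of all protein-coding genes). A peak with TNGCGTG was at Ctnna1 (5.56%, against 6.73%), and Dsp was the 1 gene of this list with a KO peak (5.56%, against 4.47%).

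The classical AHR targets gave best scores of 18.9 at Tiparp, 18.0 at Cyp1a1, 10.97 at Ahrr, 10.8 at Cyp1b1 and 8.79 at Nqo1. None of the 5 held a KO peak, and neither did 94.3% of all protein-coding genes with a wild type peak. The best peaks of Cyp1a1, Ahrr and Cyp1b1 were from 0 to 1.5% soft-masked. Each of these 3 genes held a promoter peak and a peak with TNGCGTG, as 1.39% of all protein-coding genes did. Tiparp, with the highest score of the 5, and Nqo1 held neither. The best peak of Tiparp was 26.0% soft-masked and held 7 copies of GCGTG. The best peak of Nqo1 was 100% soft-masked and held 14 copies of CACACA or TGTGTG.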
